A study of Mus musculus with 12 samples.

Results

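The miR-30 family was followed in mouse embryonic fibroblasts lacking ATF6b and in wild-type fibroblasts, with and without tunicamycin. Its members were taken as every array entry whose name carries 30a, 30b, 30c, 30d or 30e with any star or arm suffix. This gave 10 of the 611 mouse miRNAs on the array: the main strands mmu-miR-30a, mmu-miR-30b, mmu-miR-30c, mmu-miR-30d and mmu-miR-30e, and the star strands mmu-miR-30a*, mmu-miR-30b*, mmu-miR-30c-1*, mmu-miR-30c-2* and mmu-miR-30e*. The species prefix is left out where it reads more easily without it. A star marks the opposite arm of the same hairpin. The 6 groups were ATF6bKO fibroblasts left untreated, given 2 ug/mL tunicamycin for 12 h or given it for 24 h, and ATF6bWT fibroblasts under the same 3 conditions. They are called KO and WT here. All cells were on a C57BL/6 background. Each group had 2 arrays, which the design text describes as independent experiments. The labels do not say how many embryos or cell lines stand behind a genotype, so line and genotype cannot be told apart, and p-values measure only the spread between these arrays. ATF6b is an endoplasmic reticulum membrane protein that releases a transcription factor when unfolded proteins build up. Tunicamycin blocks N-linked glycosylation and provokes that state. The design text asks which miRNAs respond to 12 h of tunicamycin in an ATF6b-dependent manner.

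The main strands of the family share a seed, the stretch of bases 2 to 8 that pairs with target messenger RNAs, and so they can bind the same sites. Known targets differ in how well they are studied. In human cancer cells miR-30d acts with other miRNAs against the endoplasmic reticulum chaperone GRP78, and miR-30a represses the autophagy protein Beclin 1. In rat heart cells miR-30c represses connective tissue growth factor. One star strand, miR-30c-2*, is reported to be induced through the stress kinase PERK and to limit XBP1, a transcription factor of the unfolded protein response.

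Mature sequences were taken from RefSeq (build GRCm38.p6), which covered 7 of the 10 members in the table used. They are shown because the main strands differ only behind the seed, so probes for different members see closely related molecules. Capitals mark the seed.
miR-30a: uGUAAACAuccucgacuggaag
miR-30e: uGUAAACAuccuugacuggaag
miR-30c: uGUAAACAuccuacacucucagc
miR-30a*: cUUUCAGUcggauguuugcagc
miR-30e*: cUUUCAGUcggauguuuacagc
miR-30c-1*: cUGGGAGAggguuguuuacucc
miR-30c-2*: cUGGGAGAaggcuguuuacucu
Counted from 1 at the 5′ end, miR-30a and miR-30e match at 21 of 22 positions and differ by C13U. The star strands miR-30a* and miR-30e* also match at 21 of 22 positions and differ by G18A. Between miR-30a and miR-30c, 17 of 22 positions match, with the 5 differences all at or after position 13. The 7 sequences form 3 seed groups: GUAAACA on the main strands, UUUCAGU on miR-30a* and miR-30e*, and UGGGAGA on both miR-30c star strands. One other array miRNA carries the main seed, miR-384-5p, and it was detected on 0 of 12 arrays.

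The hairpins lie in pairs. On chromosome 1, miR-30a maps to chr1:23272274-23272295 and miR-30c to chr1:23291714-23291736, both on the plus strand. Their hairpins Mir30a and Mir30c-2 are 19361 bases apart and overlap no other annotated gene. On chromosome 4, miR-30c also maps to chr4:120769584-120769606 and miR-30e to chr4:120772660-120772681, both on the minus strand. Their hairpins Mir30c-1 and Mir30e are 2983 bases apart within Nfyc, which encodes a subunit of the CCAAT-box factor NF-Y. The mature miR-30c sequence is the same at both places, so the array cannot assign its signal to either.

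Of the 12 arrays, 3 were dim: their 75th percentile of intensity lay from 208 to 257, against 412 to 623 on the other 9. These 3 were replicate 2 of KO 12 h, KO 24 h and WT 24 h. They detected 114 to 129 miRNAs and 3 family members each, against 156 to 191 miRNAs and 5 to 7 members on the others. Untreated arrays shared 1 slide and arrays of treated cells shared another, so treatment and slide cannot be told apart. Each genotype kept to its own row of the slides, so genotype and slide row cannot be told apart either. ATF6b itself is not measured by a miRNA array. In bulk RNA, fewer cells of a type and less of a miRNA per cell cannot be told apart. Of 15 fibroblast and mesenchymal marker entries, 7 to 11 were detected on each array. Epithelial markers were detected on treated KO arrays alone: 4 to 5 of 13 entries at 12 h and 3 to 5 at 24 h, with 0 on the other 8 arrays. These were miR-200b, miR-200c and miR-141 on 4 arrays, miR-375 on 3 and miR-200a on 2, while miR-429, miR-205 and miR-203 were at 0 throughout. Blood, neural, endothelial and liver markers were detected on 0 arrays, and of the muscle markers miR-206 alone was detected.

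The levels given below are summed probe intensities divided by the array's 75th percentile, so 1 equals that percentile. On a log2 scale they were floored at -5.71. A miRNA was tested where both arrays of at least 1 group detected it, which held for 176 mouse miRNAs and 7 family members. Differences are log2 values with the standard error of a limma model over all 12 arrays, with n = 2 per group, and a miRNA is called at an adjusted p under 0.05 over the 176.

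Detection differed widely among the members. miR-30a and miR-30d were detected on 12 of 12 arrays, miR-30c on 11, miR-30e on 10 and miR-30b on 6. Among star strands miR-30a* was detected on 9 arrays and miR-30e* on 6. miR-30b*, miR-30c-1* and miR-30c-2* were detected on 0 of 12 arrays and were not tested. The reported XBP1 regulator miR-30c-2* had a scaled signal from 0.00328 to 0.0136, below the floor of 0.0191 on every array, untreated or treated. miR-30b passed the detection filter only through untreated KO cells and miR-30e* only through untreated WT cells, so both had to be brighter there than the detection limit.

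**Figure D1:**
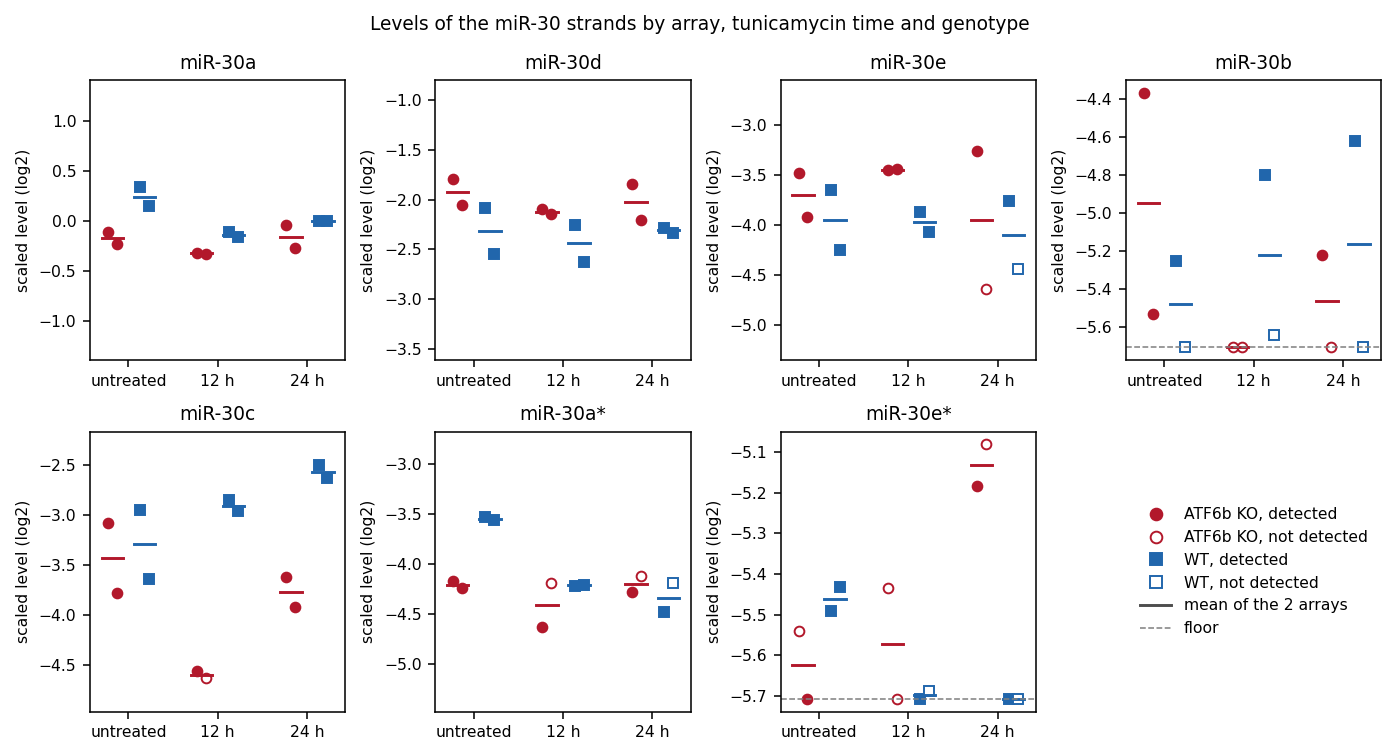
Scaled log2 level of the 7 tested miR-30 strands on each array, by hours of tunicamycin, with KO (circles) left of WT (squares). Bars are means of 2 arrays, open symbols are arrays on which the miRNA was not detected, dashed lines mark the floor, and each panel has its own axis. miR-30c is lowest on both KO 12 h arrays.

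miR-30c, a regulator of connective tissue growth factor in heart cells, was the member whose level differed most between genotypes under tunicamycin. Its scaled level was 0.118 and 0.0729 in untreated KO cells, 0.0424 and 0.0405 in KO cells at 12 h, and 0.0816 and 0.0663 in KO cells at 24 h. In WT cells it was 0.130 and 0.0804 untreated, 0.139 and 0.129 at 12 h, and 0.177 and 0.162 at 24 h. Both KO arrays lay below both WT arrays at 12 h and again at 24 h, and without treatment the genotypes overlapped. From lowest to highest, the mean log2 levels were -4.59 for KO 12 h, -3.77 for KO 24 h, -3.43 for KO untreated, -3.29 for WT untreated, -2.90 for WT 12 h and -2.56 for WT 24 h. Only the lowest and the highest group did not overlap their neighbour in that order.

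At 12 h of tunicamycin miR-30c was 3.23-fold lower in KO than in WT cells (log2 difference -1.69 ± 0.28 SE, adjusted p = 0.00264). The arrays of a slide fall into 2 runs, marked by replicate number and by a prefix that the labels' raw file names share, and each run holds both genotypes. Within the runs the difference was -1.72 and -1.67. Fitted with a block for the run, it was -1.69 ± 0.11 (adjusted p = 4.46e-05). miR-30c ranked 4th from the lowest of the 176 in this comparison. It was the 1 called member of 7, where 67 of all 176 miRNAs (38.1%) were called, 52 higher and 15 lower in KO cells. The members' share is not above that background. The call held in each of the 12 fits that leave out 1 array, with differences from -1.75 to -1.63 and adjusted p up to 0.0223. It missed the threshold when the 3 dim arrays were left out together (-1.66, adjusted p = 0.0621). In that fit KO 12 h, KO 24 h and WT 24 h have 1 array each, and each lone array is assumed to vary like the other groups. Under that assumption miR-30a* passed the threshold at 12 h (-0.41, adjusted p = 0.0289). The KO 12 h array that was not dim gave 0.0424 and the dim one 0.0405. The dim one did not detect miR-30c, and the lowest level of any mouse miRNA it detected was 0.0555, so the fold rests partly on an undetected reading. The call was lost with normexp background correction (-0.028, adjusted p = 0.942), which adds 50 to every spot where the summed intensity of miR-30c ran from 9.94 to 103. The difference turned to 0.25 with the authors' log2 values, which list no value for the dim KO 12 h array.

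Among the other main strands at 12 h, miR-30d differed between KO and WT cells by 0.32 ± 0.21 (95% interval -0.17 to 0.80), miR-30e by 0.52 ± 0.45 (-0.52 to 1.57) and miR-30a by -0.19 ± 0.13 (-0.48 to 0.11). None of these was called. The median over the 7 members was -0.19, against 0.23 over all 176. miR-30b was undetected on both KO arrays and detected on 1 of 2 WT arrays, and no fold is given for it. With quantile normalization, or with the brightest probe of each miRNA, miR-30a was also called at 12 h, at -0.55 (adjusted p = 0.0351) and -0.45 (adjusted p = 0.0411).

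At 24 h miR-30c was 2.30-fold lower in KO than in WT cells (-1.20 ± 0.28, adjusted p = 0.0128, and -1.12 and -1.29 within the runs). This and miR-30e* were the 2 called members of 7, where 61 of 176 (34.7%) were called. The call was lost without KO 24 h replicate 2 (-1.05, adjusted p = 0.0657), without WT 24 h replicate 1 (-1.14, adjusted p = 0.0676), and without the 3 dim arrays (-1.12, adjusted p = 0.227). It was also lost without the detection filter (adjusted p = 0.0661), with scaling over all mouse miRNAs (-1.52, adjusted p = 0.0794) and with normexp (-0.062, adjusted p = 0.895), and the software's total gene signal put the difference at 0.068. A block for the run kept the call (-1.20 ± 0.11, adjusted p = 0.000238). miR-30d, miR-30e and miR-30a differed by 0.28, 0.15 and -0.16 and were not called.

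At 24 h the KO levels of miR-30c overlapped those of untreated KO cells. The treated KO arrays, on which miR-30c lay below the WT arrays of the same time, were also those with epithelial markers. Summed over detected entries, the scaled level of these markers was 2.63 to 3.75 on KO 12 h arrays and 2.62 to 3.11 on KO 24 h arrays, and 0 on untreated KO arrays and all WT arrays. The summed fibroblast markers ran from 49.8 to 54.1 on KO 12 h arrays, against 36.7 to 40.2 on WT 12 h arrays, and from 46.6 to 52.4 on KO 24 h arrays, against 38.5 to 42.2 on WT 24 h arrays. The part of either marker list in the miR-30c difference was not tested.

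Without treatment miR-30c differed between KO and WT cells by -0.14 ± 0.28 (95% interval -0.80 to 0.52, adjusted p = 0.909). The called member was miR-30a*, the star strand of miR-30a. Its scaled level was 0.0557 and 0.0528 in untreated KO cells, against 0.0868 and 0.0846 in untreated WT cells, with no overlap. It was 1.58-fold lower in KO cells (-0.66 ± 0.17, adjusted p = 0.0434, and -0.64 and -0.68 within the runs). This was 1 of 7 members, where 20 of 176 (11.4%) were called, a share near the members' own. The call is close to the threshold: it was kept in 2 of the 12 fits that leave out 1 array, those without either KO 12 h array, and in the other 10 the adjusted p ran up to 0.164 with the difference between -0.70 and -0.62. It was also lost without the filter and under quantile normalization, normexp and the scaling over all mouse miRNAs, and with the software's total signal and the authors' log2 values the difference turned to 1.04 and 1.27.

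miR-30a itself stood at 0.927 and 0.849 in untreated KO cells, against 1.27 and 1.1 in untreated WT cells. The groups did not overlap, and the difference of -0.41 ± 0.13 missed the threshold (adjusted p = 0.0704). A fit with a block for the run called it (adjusted p = 0.046), and likewise when testing was limited to the 93 miRNAs detected on all arrays (adjusted p = 0.043). Untreated miR-30d ran the other way, at 0.289 and 0.240 in KO cells against 0.235 and 0.171 in WT cells, without overlap and without a call (0.39 ± 0.21, adjusted p = 0.331).

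**Figure D2:**
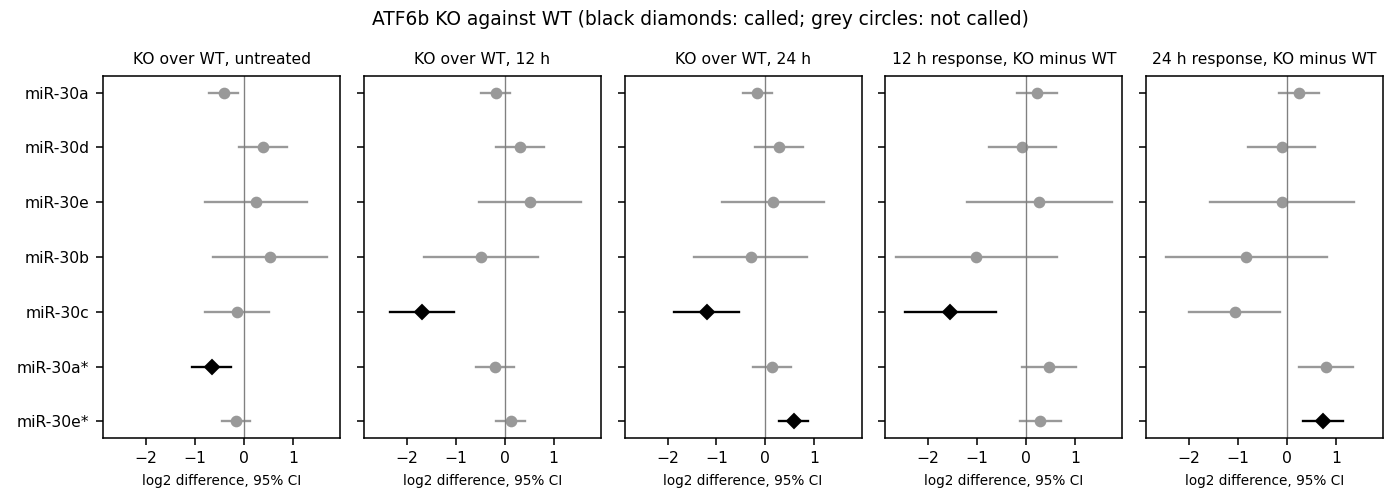
Log2 difference of KO over WT for the 7 tested miR-30 strands, untreated and at 12 h and 24 h of tunicamycin, and the KO minus WT difference of the response to tunicamycin at 12 h and 24 h. Lines are 95% confidence intervals and black diamonds are called differences. miR-30c stands at -1.69 at 12 h, -1.20 at 24 h and -0.14 without treatment.

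miR-30c fell in KO cells at 12 h of tunicamycin. The 12 h KO arrays, at 0.0424 and 0.0405, lay below the untreated KO arrays at 0.118 and 0.0729. The array at 0.0405 was dim and did not detect miR-30c, and the lowest level of any mouse miRNA it detected was 0.0555. The size of the fall thus rests partly on an undetected reading. The fall was 2.24-fold (-1.16 ± 0.28, adjusted p = 0.0175) and was the 2nd lowest of 176 differences. It was the 1 called member of 7, where 45 of 176 (25.6%) were called, 38 higher and 7 lower. The median over the members was -0.20, against 0.25 over all 176. Untreated KO replicate 1 was the higher of its pair, and without it the fall was -0.82 (adjusted p = 0.113). The call was also lost without KO 12 h replicate 1 (-1.20, adjusted p = 0.0698), KO 12 h replicate 2 (-1.13, adjusted p = 0.0988) or the 3 dim arrays (-1.13, adjusted p = 0.220). The call did not hold without the detection filter (adjusted p = 0.0886) or with scaling over all mouse miRNAs (-1.38, adjusted p = 0.109). Nor did it hold with the software's total gene signal (-1.64, adjusted p = 0.781). The difference turned to 0.25 with normexp and to 0.41 with the authors' log2 values. At 24 h in KO cells miR-30c was -0.34 ± 0.28 from untreated (adjusted p = 0.435).

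In WT cells the mean of miR-30c lay on the other side. It stood 0.39 ± 0.28 above untreated cells at 12 h (95% interval -0.27 to 1.04, adjusted p = 0.304) and 0.73 ± 0.28 above them at 24 h (0.07 to 1.38, adjusted p = 0.0736). Neither was called. On the brightest probe of each miRNA both were called, at 0.88 (adjusted p = 0.0175) and 1.05 (adjusted p = 0.00701). The 24 h difference was also called without either untreated KO array (adjusted p = 0.0451 for each) and without WT untreated replicate 1 (1.07, adjusted p = 0.0352).

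The response of miR-30c to 12 h of tunicamycin differed between genotypes by -1.55 ± 0.40, KO minus WT (95% interval -2.48 to -0.62, adjusted p = 0.0271). This difference of differences is the comparison the design text names. It ranked 6th from the lowest of 176. It was the 1 called member of 7, where 43 of 176 (24.4%) were called, of which 39 were higher and 4 lower. Across the other 6 members the difference lay from -1.02 for miR-30b to 0.47 for miR-30a*. The call was kept in 6 of the 12 fits that leave out 1 array. It was lost without KO untreated replicate 1 (-1.20), either KO 12 h array (-1.59 and -1.52), WT untreated replicate 2 (-1.21) or either WT 12 h array (-1.49 and -1.61), with adjusted p from 0.0606 to 0.0844. Without the 3 dim arrays it was -1.52 (adjusted p = 0.162). With quantile normalization it was -1.58 (adjusted p = 0.0983), with scaling over all mouse miRNAs -1.75 (adjusted p = 0.321), and with normexp 0.11. Fitted with a block for the run, it was called (-1.55 ± 0.16, adjusted p = 0.000674). Over the 5 comparisons within a slide other than 24 h against 12 h, that fit called 18.8% to 51.7% of all 176.

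At 24 h the same difference for miR-30c was -1.06 ± 0.40 (adjusted p = 0.101). Fitted with a block for the run, it was called (-1.06 ± 0.16, adjusted p = 0.00366), as was miR-30a* (0.80 ± 0.19, adjusted p = 0.0194), which without the block had an adjusted p of 0.0522. The number of called members was then 3 of 7, where 60 of 176 (34.1%) were called, against 1 of 7 without the block, where 36 of 176 (20.5%) were. The block raised the count over all miRNAs as well, and the gain is no result about the family. From 12 h to 24 h of tunicamycin miR-30c stood 0.83 ± 0.28 higher at 24 h in KO cells (adjusted p = 0.39, and 0.0103 for the adjusted p in the blocked fit), with 0.94 and 0.71 within the runs. In WT cells it stood 0.34 ± 0.28 higher at 24 h. Of the 7 members 0 were called in either comparison (limma, 0.568% of the 176 in KO and 1.14% in WT cells), with 2 members in KO and 0 in WT cells at an unadjusted p under 0.05.

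Both probes of miR-30c were examined. Probe A_54_P3752 was detected on 11 arrays and A_54_P1270 on 2, and the first holds most of the signal. At 12 h A_54_P3752 stood at 0.0424 and 0.0465 in KO cells, against 0.129 and 0.124 in WT cells. Its log2 difference was -1.51 at 12 h and -1.16 at 24 h between KO and WT cells, and -0.12 without treatment. Probe A_54_P1270 lay below the floor on all treated arrays of both genotypes and gives no difference there. In untreated cells it had 0.0267 and 0.0109 in KO and 0.0340 and 0.0107 in WT cells. It is part of the summed untreated level, and on A_54_P3752 alone the 12 h difference from untreated was -0.76 in KO and 0.63 in WT cells.

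**Figure D3:**
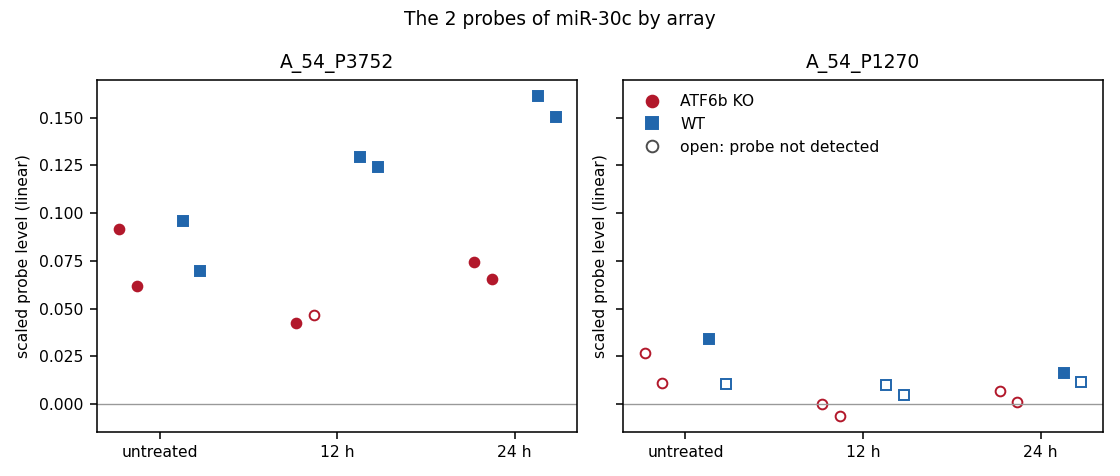
Scaled level (linear) of the 2 miR-30c probes on each array by hours of tunicamycin, with KO (circles) left of WT (squares). Open symbols are arrays on which the probe was not detected. On A_54_P3752 both KO arrays lie below both WT arrays at 12 h and 24 h, and A_54_P1270 is detected on 2 WT arrays alone.

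mmu-miR-30a, the Beclin 1 regulator, was called in 1 comparison. Its scaled level was 0.802 and 0.795 in KO cells at 12 h and 0.969 and 0.825 at 24 h. In WT cells it was 0.927 and 0.890 at 12 h, and exactly 1 on both arrays at 24 h, since miR-30a was itself the 75th percentile there. Its zero spread in that group comes from the scaling. The fit shares 1 spread over all groups, so this lowers the standard error of miR-30a in every comparison. In WT cells at 12 h it was 1.30-fold lower than in untreated WT cells (-0.38 ± 0.13, adjusted p = 0.0463). The call was kept in 3 of the 12 fits that leave out 1 array and lost without any one array of KO untreated, KO 12 h, WT 12 h or WT 24 h and without WT untreated replicate 1, which left -0.28 (adjusted p up to 0.165). It was also lost with other choices: all-miRNA scaling, normexp, the total signal, the authors' log2 values, no filter, the lower floor, the software's probe totals, the brightest probe and without the dim arrays. In KO cells the 12 h difference was -0.15 ± 0.13 (95% interval -0.44 to 0.14, adjusted p = 0.425). The 2 responses differed by 0.23 ± 0.18 (adjusted p = 0.386). All 3 probes of miR-30a gave a lower level in WT cells at 12 h, at -0.43, -0.36 and -0.38.

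Its star strand miR-30a* fell in WT cells at both times. The scaled level was 0.0537 and 0.0542 at 12 h and 0.0448 and 0.0546 at 24 h, against 0.0868 and 0.0846 in untreated WT cells, and neither treated group overlapped the untreated one. Fibroblast and mesenchymal markers moved with it: 8 of 10 tested were called lower and 0 higher at each time, with a median of -0.87 at 12 h and -1.19 at 24 h. Over all 176 miRNAs 42 were called lower and 25 higher at 12 h, and 52 lower and 24 higher at 24 h. The summed level of the markers was 36.7 to 40.2 on WT 12 h and 38.5 to 42.2 on WT 24 h arrays, against 42.0 to 49.2 on untreated WT arrays. Their part in the fall was not tested. The fall was 1.59-fold at 12 h (-0.67 ± 0.17, adjusted p = 0.0169) and 1.73-fold at 24 h (-0.79 ± 0.17, adjusted p = 0.00644). Together with miR-30a it made 2 called members of 7 at 12 h, where 67 of 176 (38.1%) were called, and it was the 1 called member at 24 h, where 76 of 176 (43.2%) were. Those shares are below the background, and the counts are no result about the family. Of the 2 calls, that at 24 h held in all 12 fits that leave out 1 array and without the dim arrays (-0.94, adjusted p = 0.0068). The call at 12 h was lost without either untreated WT array or either WT 12 h array (adjusted p from 0.0551 to 0.0748, differences from -0.69 to -0.65). At 24 h the dim WT array did not detect it. The WT 12 h fall turned to 0.93 with the software's total signal and to 1.1 with the authors' log2 values, and the 24 h fall to 0.0073 with normexp.

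In KO cells miR-30a* was 0.0405 and 0.0549 at 12 h and 0.0514 and 0.0576 at 24 h, against 0.0557 and 0.0528 untreated. These overlapped, and the differences of -0.20 ± 0.17 and 0.00 ± 0.17 were not called. Without the dim arrays, the 12 h difference (-0.42, adjusted p = 0.0358) and the 24 h response difference, KO minus WT (0.86, adjusted p = 0.0255), passed the threshold. Each treated group in them then has 1 array, so their spread comes from other groups. Across the 12 arrays the log2 levels of miR-30a and miR-30a* correlated at r = 0.72, as a description over arrays that share scaling and slide.

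**Figure D4:**
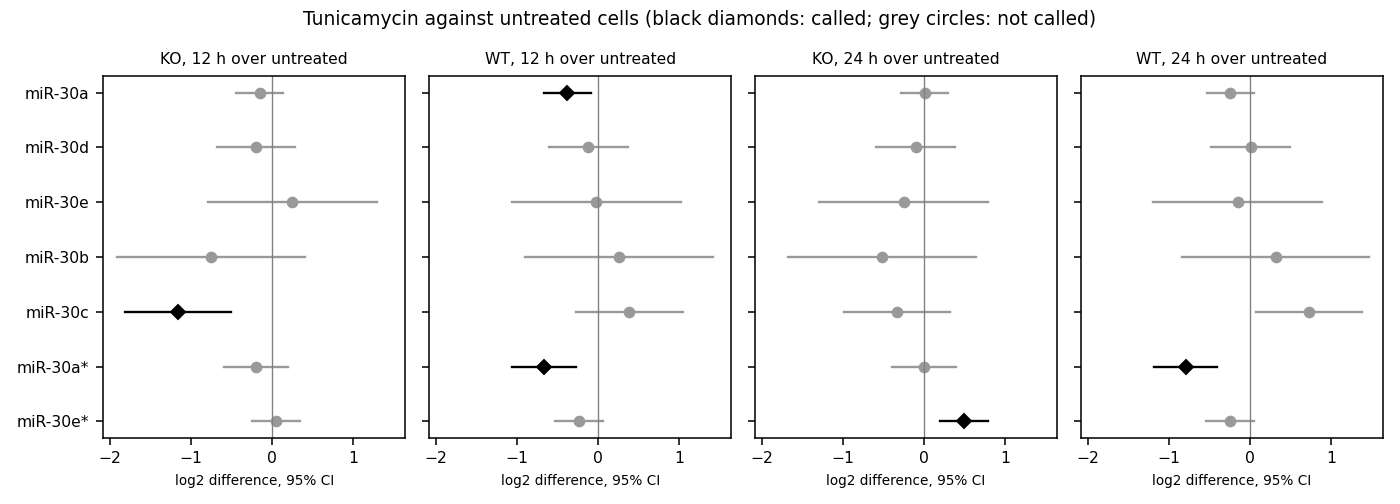
Log2 difference of tunicamycin over untreated cells for the 7 tested miR-30 strands, in KO and WT cells at 12 h and 24 h. Lines are 95% confidence intervals and black diamonds are called differences. miR-30c falls by 1.16 in KO cells at 12 h and stands 0.39 above untreated in WT cells, while miR-30a* falls in WT cells at both times.

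mmu-miR-30d, which acts on GRP78 in human cancer cells, was detected on every array and was called in 0 of the 11 comparisons (limma, adjusted p from 0.291 upwards). In KO cells its scaled level was 0.289 and 0.240 untreated, 0.233 and 0.226 at 12 h, and 0.278 and 0.218 at 24 h. In WT cells it was 0.235 and 0.171 untreated, 0.209 and 0.162 at 12 h, and 0.206 and 0.198 at 24 h. Both KO arrays lay above both WT arrays in each of the 3 conditions, by 0.39 untreated, 0.32 at 12 h and 0.28 at 24 h on the log2 scale, and none of these was called. The intervals reach from -0.20 to 0.88. Tunicamycin moved its mean by -0.20 at 12 h and -0.10 at 24 h in KO cells, and by -0.12 and 0.01 in WT cells, with 95% intervals that all lie within -0.68 and 0.50. Both of its probes were detected on all 12 arrays.

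mmu-miR-30e, which differs from miR-30a at a single base outside the seed, was called in 0 of the 11 comparisons as well. It stood at 0.0916 and 0.0921 in KO cells at 12 h, against 0.0687 and 0.0596 in WT cells at 12 h, without overlap (0.52 ± 0.45, adjusted p = 0.415). At 24 h it stood at 0.104 and 0.0402 in KO cells and at 0.0741 and 0.0460 in WT cells, where the lower value of each pair came from a dim array that did not detect it. In untreated cells it was 0.0897 and 0.0663 in KO and 0.0798 and 0.0527 in WT. miR-30c and miR-30e share a locus within Nfyc, and over the 12 arrays their log2 levels correlated at r = -0.25. The pairs miR-30a with miR-30c, at r = 0.61, and miR-30d with miR-30e, at r = 0.64, were higher. These are descriptions over 12 arrays, and they carry no test.

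mmu-miR-30b, which like miR-30d is linked to melanoma metastasis in human cells, lay near the limit of the array. It was detected on both untreated KO arrays (0.0484 and 0.0216), on 0 of 2 KO arrays at 12 h and on 1 of 2 at 24 h (0.0268). In WT cells it was detected on replicate 1 alone of each condition, at 0.0262 untreated, 0.0359 at 12 h and 0.0407 at 24 h. The detected arrays come from the brighter ones in each treated pair. Its largest difference was -1.02 ± 0.71 for the 12 h response, with an adjusted p of 0.324, and 0 of the 11 comparisons were called (limma).

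mmu-miR-30e* was called in 3 comparisons at levels close to the floor. At 24 h its scaled level was 0.0275 and 0.0295 in KO cells, of which the second was not detected, against 0.0146 and 0.0102 in WT cells, of which the first was. The KO arrays lay above the WT arrays, and the fitted difference was 0.58 ± 0.13 (adjusted p = 0.01). Both WT values lie under the floor and were set to it, so this is the KO level over the floor, and no fold is given. Untreated KO arrays stood at 0.0215 and 0.0170, of which the second was set to the floor, and the fitted difference of the 24 h KO arrays from them was 0.49 ± 0.13 (adjusted p = 0.0222). This was the 1 called member of 7 for KO cells at 24 h, where 54 of 176 (30.7%) were called. Before scaling, the intensity of miR-30e* was 13.4 and 10.2 in untreated KO cells and 11.3 and 6.14 at 24 h. The mean in KO cells was thus higher at 24 h only after scaling. Of the 4 treated WT values 3 lay at the floor, where the spread is set by the floor and not measured, and this enters the standard error.

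The 24 h response of miR-30e* differed between genotypes by 0.74 ± 0.18, KO minus WT (adjusted p = 0.0258). Its WT term sets values at the floor against untreated WT cells, the group through which miR-30e* passed the filter, so the value is not independent of that choice. Without the 3 dim arrays none of the 3 calls stood (adjusted p from 0.0548 to 0.0667), and likewise on the brightest probe (adjusted p from 0.299 to 0.483). The call against WT at 24 h was lost without WT 24 h replicate 1 (adjusted p = 0.0504). That against untreated KO cells was lost without KO untreated replicate 2 (0.41, adjusted p = 0.102) or KO 24 h replicate 2 (0.44, adjusted p = 0.0968). The response difference was lost without KO untreated replicate 2, KO 24 h replicate 1, WT untreated replicate 1 or either WT 24 h array (0.66 to 0.79, adjusted p from 0.051 to 0.0809). With the floor at 0.25 of its value, the WT difference of 24 h from untreated was -0.89, against -0.25 with the main floor, so its size is set by the floor.

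For each member detected on all arrays, the miRNAs with the most similar levels were sought among the 91 others detected on all 12 arrays. For miR-30a they were miR-125a-5p (r = 0.75), miR-125b-5p (r = 0.73) and miR-221 (r = 0.56). For miR-30d they were miR-34c (r = 0.88), miR-337-5p (r = 0.84) and miR-26a (r = 0.82). Each r is over 12 arrays that share slides, runs and scaling, and none carries a test.

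miRNAs linked to the unfolded protein response gave the setting for miR-30c-2*. The list had 36 entries on the array, of which 17 were tested, and miR-30c-2* was not among them. Entries were matched by name, so the 17 include star strands of miR-17 and miR-24, some of them among the calls below. Of the 17, miR-199a-5p and miR-214 are also fibroblast and mesenchymal markers. In KO cells at 12 h 4 of 17 rose and 1 fell, where 38 of all 176 rose and 7 fell. Those that rose were miR-106b by 2.37, miR-93 by 2.36, miR-96 by 2.74 and miR-25 by 0.84. In WT cells at 12 h 5 rose and 7 fell, where 25 of 176 rose and 42 fell. The same 4 were among those that rose there, with miR-106b at 1.42, miR-93 at 1.24, miR-96 at 0.75 and miR-25 at 1.31. The response at 12 h was higher in KO cells for 6 of 17 and lower for 0, where it was higher for 39 of 176 and lower for 4. The median of that difference was 0.55 over the list and 0.37 over all 176. In WT cells at 24 h 4 of 17 rose and 8 fell, where 24 of 176 rose and 52 fell. The called share of the list thus lay above that over all 176 in WT cells at both times, and near it in KO cells at 12 h. The list was chosen with earlier results of these data known, and whether these counts are particular to it was not tested.

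The authors' deposited log2 table carries values for miR-30 members that their probes do not give. It holds, unscaled, the log2 of what the scanner software lists as total gene signal. Where all probes of a miRNA were detected, that total equalled the sum of its own probe totals in 1179 of 1179 values, to within 0.1%. Where only some were detected, it equalled that sum in 105 of 728 values, and in 616 (84.6%) it equalled the sum plus the total listed for the preceding detected miRNA in name order. The names miR-30a, miR-30a*, miR-30b, miR-30c, miR-30d and miR-30e follow each other in that order, so the bright miR-30a is passed on to its dim neighbours.

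On untreated KO replicate 1 the totals over all of a miRNA's own probes were 245 for miR-30a, 23.0 for miR-30a*, 20.0 for miR-30b and 48.9 for miR-30c. The listed totals were 245, 260, 274 and 312. On KO 12 h replicate 1 the listed total of miR-30c was 174 and its own probes gave 12.8. On the WT 12 h arrays the listed totals were 94.1 and 229, where its own probes gave 59.5 and 40.7. The KO array thus lies below both WT arrays by its own probes and between them by the listed totals. The excess touched miR-30c on 9 of 11 detected arrays, by up to 16.4 times, miR-30b on 6 of 6 by up to 13.7 times, miR-30e on 8 of 10 by up to 4.44 times and miR-30a* on 3 of 9 by up to 13.3 times. For miR-30e* the listed total was 0.738 to 0.963 of its own probes, since undetected probes are left out. For miR-30a it touched 1 array of 12 and for miR-30d 0 of 12. Detection calls are not touched by it, since a miRNA counts as detected where any probe exceeds 3 times its own error, which matched the files' calls in every case.

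**Figure D5:**
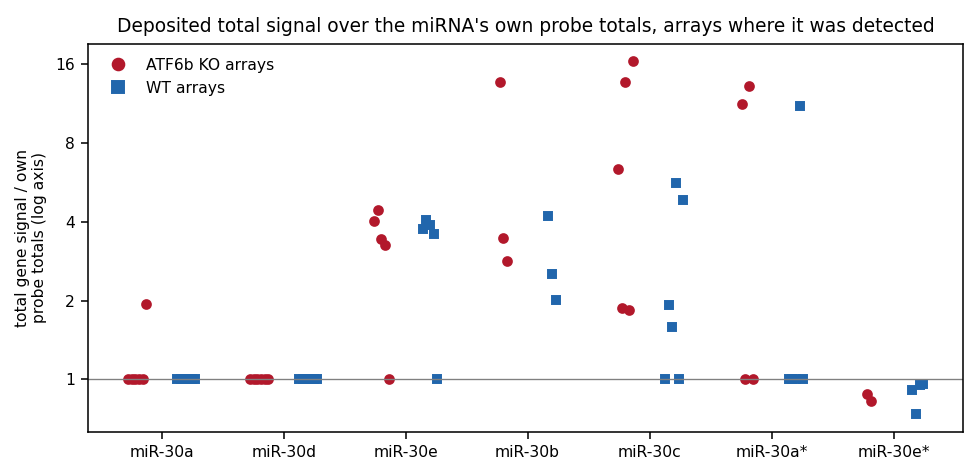
Ratio of the listed total gene signal to the sum of the miRNA's own probe totals on each array that detected it, on a log axis, with KO arrays (circles) left of WT arrays (squares). A ratio of 1 means that the total holds the miRNA's own probes alone. miR-30d stays at 1 on 12 arrays, and miR-30c reaches 16.4.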

How the data were processed

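Mature miRNAs were measured on 12 1-colour Agilent arrays, which per the labels' protocols took 100 ng of RNA with the dye Cy3. The authors deposited scanner tables of spot intensity. The submitters' processing notes name Agilent Feature Extraction 10.7.1.1 for them. The authors also deposited log2 values without scaling between arrays, which match the log2 total gene signal of those tables to within 1.18e-06. The background-subtracted intensity was used. Spots of a probe were averaged without the 232 to 657 spots per array marked as outliers by the software, and then the probes of each miRNA were added up. Division by the array's 75th percentile, taken over 93 miRNAs that all arrays detected, a floor of 0.0191 and log2 followed. Tested were 176 mouse miRNAs that both arrays of some group detected. limma 3.58.1 in R 4.3.3 fitted 6 group means over 12 arrays (residual degrees of freedom 6, prior 1.65), in 11 comparisons, with p-values adjusted by Benjamini-Hochberg over the 176 and a threshold of 0.05. The p-values measure the spread between the 2 arrays of a group. The number of arrays limits the precision.

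On each slide the replicate number marks a run: the deviations from group means of arrays that share a number correlated at 0.48 to 0.91 between groups on 1 slide and at -0.38 to -0.05 between slides, and the labels' raw file names share a prefix by run. The run was fitted as a block as an alternative. Other alternatives were quantile normalization, scaling over all mouse miRNAs, normexp with an offset of 50 on median spot and background signals without outlier spots (the tables hold no mean signal, and 1 spot of bright local background breaks a fit on all spots), the software's total signal, the authors' log2 values, no filter, detection on all arrays, a floor at 0.25 of its value, and each array left out. Combining probes by the software's probe totals or the brightest probe, and leaving out the 3 dim arrays, were chosen after seeing the data. The members, the miRNA lists and the markers were chosen with earlier results of these data known, and the list's counts are given as a description. Named miRNAs are all members, seed mates, the 3 closest by correlation to each member detected on all arrays, and up to 4 called miRNAs of the unfolded protein response list. Sequences and places are from RefSeq tables of GRCm38.p6. No build of the array design was used.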

Additional observations from a re-analysis of the deposited data

Results flagged for a closer look

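The response of miR-30c to 12 h of tunicamycin differed between genotypes by -1.55 on the log2 scale, KO minus WT, by the interaction term of the limma fit (adjusted p = 0.0271). Its 12 h difference from untreated cells was -1.16 in KO and 0.39 in WT cells. The call on this response was kept with a block for the run and in 6 of the 12 fits that leave out 1 array. It was lost without the detection filter (limma, adjusted p = 0.135), and the value turned to 0.11 with normexp. The response of miR-30e* to 24 h differed by 0.74 in the same test (adjusted p = 0.0258), with differences from untreated of 0.49 in KO and -0.25 in WT cells, and 3 of its 4 treated WT values lay at the floor. miR-30e* passed the detection filter only through untreated WT cells, which enter this difference, so its size depends on the filter and the floor.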

How the results depend on the processing

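Most counts of called members depend on the processing, and the share of all miRNAs called moved too. Over the 9 comparisons other than 24 h against 12 h that share was 11.4% to 43.2% as reported, 2.27% to 26.7% with quantile normalization, 0% to 6.82% with scaling over all mouse miRNAs, 0.568% to 11.4% with normexp, 1.7% to 14.8% with the total signal, 0% with the authors' log2 values, 1.96% to 8.84% without the filter, 19.4% to 51.6% of those detected on all arrays, 7.39% to 34.1% without the dim arrays, and 11.9% to 47.2% over the lower floor, the brightest probe and the software's probe totals. With normexp, the software's total gene signal or the authors' log2 values 0 members were called in every comparison (limma), with 0 to 1, 0 to 2 and 0 to 1 members at an unadjusted p under 0.05. Scaling over all mouse miRNAs gave 0 except 1 for KO against WT at 12 h. Testing the miRNAs detected on all arrays, which hold miR-30a and miR-30d alone of the family, left 1 each for WT 12 h and untreated KO against WT and 0 elsewhere. Without the filter the count was 1 for KO against WT at 12 h, KO against WT at 24 h, KO 24 h, WT 24 h and the 24 h response difference, and 0 elsewhere. Quantile normalization gave 1 for KO 12 h and WT 12 h, 2 for KO against WT at 12 h, 1 at 24 h and 0 elsewhere. With the lower floor WT 12 h had 1, KO 24 h 0 and WT 24 h 2. The software's probe totals gave 1, 0 and 2 for the same, and 2 for untreated KO against WT. The brightest probe gave 0 for KO 24 h, 2 for WT 24 h, 2 for KO against WT at 12 h and 1 at 24 h. Without the 3 dim arrays WT 12 h had 1, and KO 24 h, the 12 h response difference and KO against WT at 24 h had 0. Leaving out 1 array at a time gave 0 to 1 for KO 12 h, KO 24 h, the 12 h response difference and untreated KO against WT, 0 to 2 for WT 12 h, the 24 h response difference and KO against WT at 24 h, 1 to 2 for WT 24 h, 1 throughout for KO against WT at 12 h, and 0 for both comparisons of 24 h with 12 h.

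With the run as a block, which gives no value for treated against untreated cells since they lie on different slides, counts were 3 for the 24 h response difference (34.1% of all 176 called), 2 for untreated KO against WT (18.8%) and 1 for KO 24 h against 12 h (1.7%). With the replicate block they were 3 and 2 for the first of these and 2 for WT 24 h, where miR-30c was called (0.73, adjusted p = 0.0164), although replicate numbers do not pair across slides. The blocks changed no other call.

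Values that turned direction were miR-30c in KO 12 h (0.25 with normexp, 0.41 with the authors' log2 values), KO against WT at 12 h (0.25 with the authors' log2 values) and at 24 h (0.068 with the total signal), and the 12 h response difference (0.11 with normexp). For miR-30a* they were WT 12 h (0.93 with the total signal, 1.1 with the authors' log2 values), WT 24 h (0.0073 with normexp) and untreated KO against WT (1.04 with the total signal, 1.27 with the authors' log2 values). Of the 11 calls on members 2 held in all 12 fits that leave out 1 array: miR-30c, KO against WT at 12 h, and miR-30a*, WT 24 h. The causes were not tested. Dim members lie close to background, so small changes there were not detectable.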
